A study of Homo sapiens with 6 samples.

Results

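The 10 genes described here act at both ends of the life of coenzyme A (CoA), the carrier of acyl groups in the cell. Inside the cell, pantothenate (vitamin B5) is phosphorylated by the pantothenate kinases PANK1, PANK2 and PANK3, joined to cysteine by PPCS, decarboxylated by PPCDC and completed by COASY, a bifunctional enzyme that carries out the last steps of the pathway. Outside the cell, the ectoenzymes ENPP1 and ENPP3 hydrolyse nucleotide substrates, CoA among them, and the pantetheinases VNN1 and VNN2 split pantetheine into pantothenate and cysteamine. Pantothenate made in this way can be taken up again, so the second branch is a salvage route. VNN1 is known from the brush border of the kidney proximal tubule and as a target of the nuclear receptor PPARA.

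The genes were chosen by name, from a list drawn up with the results of this same comparison known, and all 10 of them were found among the 31369 genes of the count table. RNA was sequenced from HK-2, an immortalized human cell line derived from the proximal tubule of the kidney, in a control group (NC, 3 samples, genotype entered as WT) and a group overexpressing *PPM1K* (OE, 3 samples, genotype entered as PPM1K overexpress). *PPM1K* encodes the mitochondrial phosphatase that activates the enzyme complex of branched-chain amino acid breakdown. The study's methods describe transfection of HK-2 cells with 2.5 µg of plasmid, while the sample titles name shControl and shPPM1K at day 10, all 6 samples carry a treatment entry of chronic kidney disease, and what the NC cells received is not given in the sources used here. The cell line entries carry a different HK number on each sample, whereas the cell type entries give HK-2 for all 6.

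The labels were checked on the targeted gene, which was counted 37, 19 and 53 times in NC replicates 1, 2 and 3 and 3294, 3531 and 2919 times in OE replicates 1, 2 and 3. The genotype entries were therefore used, although these counts do not separate the plasmid's transcript from the cell's own. Total counts ranged from 34635770 to 36116963 in NC and from 36033404 to 39850802 in OE. NC replicate 2 stood apart, with 26478 genes having at least 1 count against 22094 to 22913 in the other 5 samples. OE replicate 3 was the farthest from its own group, with a mean chi-square per gene of 11.0 and 9.93 against the other OE samples, where all other pairs within a group had 4.83 to 6.67. The markers of the proximal tubule were low in these cells: the summed CPM (counts scaled to library size) of 8 marker genes was 2.48 to 3.75 in NC and 1.84 to 2.28 in OE, with LRP2 at most at 1 count. Of these, 2 were lower at an adjusted p under 0.05 in edgeR, SLC5A2 (mean CPM 0.831 in NC and 0.394 in OE) and GGT1 (1.35 and 0.633). The mean CPM of AQP1, CUBN, HNF4A and ANPEP was not lower in OE. Their highest counts in any sample were 5, 6, 8 and 22, so these directions rest on few reads. Markers of epithelium in general were abundant, with a summed CPM of 6 genes of 3610 to 3970 in NC and 2920 to 3180 in OE, where 4 were lower and 1 was higher by the same test. Of 8 markers of other cells, 6 were in the table and 2 were higher and 1 was lower. Their summed CPM was 17.8 to 18.8 in NC and 13.3 to 15.5 in OE, where COL1A1 (mean CPM 13.0 in NC and 6.56 in OE) carried the lower sum and the means of PECAM1, VWF, ACTA2 and NPHS1 were higher. The part of these shifts in the results below was not tested.

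The sequences before the start sites are shown first, because they differ widely in composition among members that differ in the same direction. In each, 250 bases upstream of the RefSeq start nearest to the start of the GENCODE gene (GRCh38.p14) are printed in the direction of transcription, with CpG dinucleotides in capitals. VNN2 has 2 CpGs in chr6:132763456-132763705 (minus strand, 48.4% GC), ENPP1 has 28 in chr6:131807770-131808019 (plus strand, 68.8% GC), and PPCDC, whose level was higher in OE, has 12 in chr15:75023340-75023589 (plus strand, 58.8% GC). PPCDC has another RefSeq start farther downstream, whose window, not printed, has 4 CpGs. The median over all 35116 windows of this length was 11 CpGs and 58.0% GC.
VNN2: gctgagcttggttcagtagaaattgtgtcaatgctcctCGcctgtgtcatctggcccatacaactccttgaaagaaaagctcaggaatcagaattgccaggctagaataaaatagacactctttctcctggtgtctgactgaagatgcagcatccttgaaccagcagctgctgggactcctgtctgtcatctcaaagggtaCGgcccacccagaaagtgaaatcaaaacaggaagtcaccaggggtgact
ENPP1: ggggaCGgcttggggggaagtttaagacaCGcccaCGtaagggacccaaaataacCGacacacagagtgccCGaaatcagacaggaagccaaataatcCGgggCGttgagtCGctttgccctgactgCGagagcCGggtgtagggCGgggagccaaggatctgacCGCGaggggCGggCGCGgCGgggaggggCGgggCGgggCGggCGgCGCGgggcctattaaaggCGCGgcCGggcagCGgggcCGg
PPCDC: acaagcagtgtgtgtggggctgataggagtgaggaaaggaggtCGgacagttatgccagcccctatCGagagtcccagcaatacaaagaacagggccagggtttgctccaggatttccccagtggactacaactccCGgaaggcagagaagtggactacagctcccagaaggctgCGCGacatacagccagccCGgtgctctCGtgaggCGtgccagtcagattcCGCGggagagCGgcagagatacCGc

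RefSeq windows were found for 9 of the 10 members, 16 windows in all. VNN1 had no window, so its upstream sequence was not searched. The letters AGGTCA, a half-site of nuclear receptors, were searched on both strands. They occurred before COASY, PANK2 and PPCDC, in 4 of the 16 windows of members and in 12.1% of all windows. For PANK2 they are the same site in overlapping windows, so the windows of a gene are not independent. For PPCDC the match is in the window of the other start and not in the sequence printed. TGACNNNGC, the core of the antioxidant response element, occurred before PANK2 and PPCS, in 2 of the 16 windows of members and in 10.9% of all windows. CCAAT occurred before ENPP3, PANK1 and PANK2, in 4 of the 16 windows of members and in 32.0% of all windows. Neither TGATGNAAN, the C/EBP-ATF response element present in 3.13% of all windows, nor the E-box CACGTG, present in 6.34%, was found in a member's window. The CCAAT match of ENPP3 lies before a start 8860 bases from the start of the GENCODE gene. Those of PANK1 lie before a start 1326 bases away, and its window at the GENCODE start has no match. A match is a match of letters and not a bound site.

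The pantothenate kinase genes share a second feature, a microRNA within an intron on the same strand. MIR107 lies in PANK1, MIR103A2 in PANK2 and MIR103A1 in PANK3. Their mature forms are shown because hosts that went in opposite directions carry one seed, bases 2 to 8, printed in capitals. Counted from 1 at the 5′ end of hsa-miR-103a-3p, the mature forms differ by 1 base, G22C.
hsa-miR-107 (PANK1, chr10:89592756-89592778, minus strand, GRCh38.p14): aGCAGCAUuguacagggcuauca
hsa-miR-103a-3p (PANK2, chr20:3917541-3917563, plus strand, and PANK3, chr5:168560904-168560926, minus strand): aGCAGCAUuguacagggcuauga
The libraries were made from mRNA and did not measure the mature microRNAs. The row for MIR103A2 held 1, 1 and 1 counts in NC and 0, 2 and 2 in OE, and no level is read from it.

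The pantetheinases were lower in OE. VNN1 (ENSG00000112299.8, chromosome 6, 132680849 to 132714055, minus strand, GENCODE 44 on GRCh38) was counted 127, 147 and 126 times in NC replicates 1, 2 and 3 and 56, 68 and 45 times in OE replicates 1, 2 and 3. Scaled to transcript length and library size as FPKM by the authors, its level was 0.903 ± 0.0777 in NC and 0.360 ± 0.0600 in OE (SD, n = 3 each). VNN2 (ENSG00000112303.14, chromosome 6, 132743870 to 132763459, minus strand) was counted 52, 75 and 58 times in NC and 26, 29 and 17 times in OE, with an FPKM of 0.620 ± 0.114 (SD, n = 3) and 0.227 ± 0.0493 (SD, n = 3). For both genes every OE sample lay below every NC sample. Expressed as log2 fold changes of OE over NC, the differences were −1.33 (SE 0.18) for VNN1 and −1.45 (SE 0.26) for VNN2, a fold of 0.397 and 0.366. These values, like those of the other 8 members, are a description and carry no test, because the genes were picked with this comparison in view. In RNA of whole cultures, fewer cells that express a gene and less of its RNA per cell cannot be told apart.

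The balance between the pantetheinases was not separated between the groups. The FPKM of VNN1 over that of VNN2 was 1.63, 1.32 and 1.47 in the NC samples and 1.44, 1.62 and 1.76 in the OE samples, so the ranges overlapped. Their summed FPKM went from 1.52 ± 0.188 (SD, n = 3) to 0.587 ± 0.107 (SD, n = 3). The highest value of both genes in NC was that of replicate 2, the library that stood apart. Without it the log2 fold change was −1.25 for VNN1 and −1.28 for VNN2, and without OE replicate 3 it was −1.22 and −1.28. The third gene of the family, VNN3, had 5 counts over all 6 samples and was too low to be tested.

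ENPP3 had the lowest ratio of OE to NC among the members. The gene (ENSG00000154269.15, chromosome 6, 131628442 to 131747418, plus strand) was counted 88, 85 and 89 times in NC and 18, 8 and 9 times in OE. The NC samples differed little among themselves, with a coefficient of variation of CPM of 2.30%, while the OE samples varied by 49.0% around a few counts each. The exact Poisson 95% interval, which covers counting error only, was 3.45 to 15.8 for the sample with 8 counts and 10.7 to 28.4 for the sample with 18. For the NC samples it was 67.9 to 105 at 85 counts and 71.5 to 110 at 89 counts. These intervals are wider than the range of the NC counts, so the small NC spread is not read as precision. The log2 fold change was −2.98 (SE 0.28), a fold of 0.127, and −3.44 without OE replicate 1, the highest of the OE samples. FPKM was 0.587 ± 0.0252 in NC and 0.0767 ± 0.0379 in OE (SD, n = 3 each).

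ENPP1 (ENSG00000197594.14, chromosome 6, 131808016 to 131895155, plus strand), best known as a source of extracellular pyrophosphate, was counted 192, 199 and 179 times in NC and 116, 130 and 129 times in OE. Its FPKM was 0.433 ± 0.0289 in NC and 0.270 ± 0.0200 in OE (SD, n = 3 each), with every OE sample below every NC sample. The log2 fold change was −0.69 (SE 0.13), a fold of 0.618. The pair of ectoenzymes therefore changed places: the FPKM of ENPP1 over ENPP3 was 0.738, 0.804 and 0.678 in NC and 2.08, 5.40 and 4.83 in OE. The sum of both went from 1.02 ± 0.0361 (SD, n = 3) to 0.347 ± 0.0252 (SD, n = 3).

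**Figure D1:**
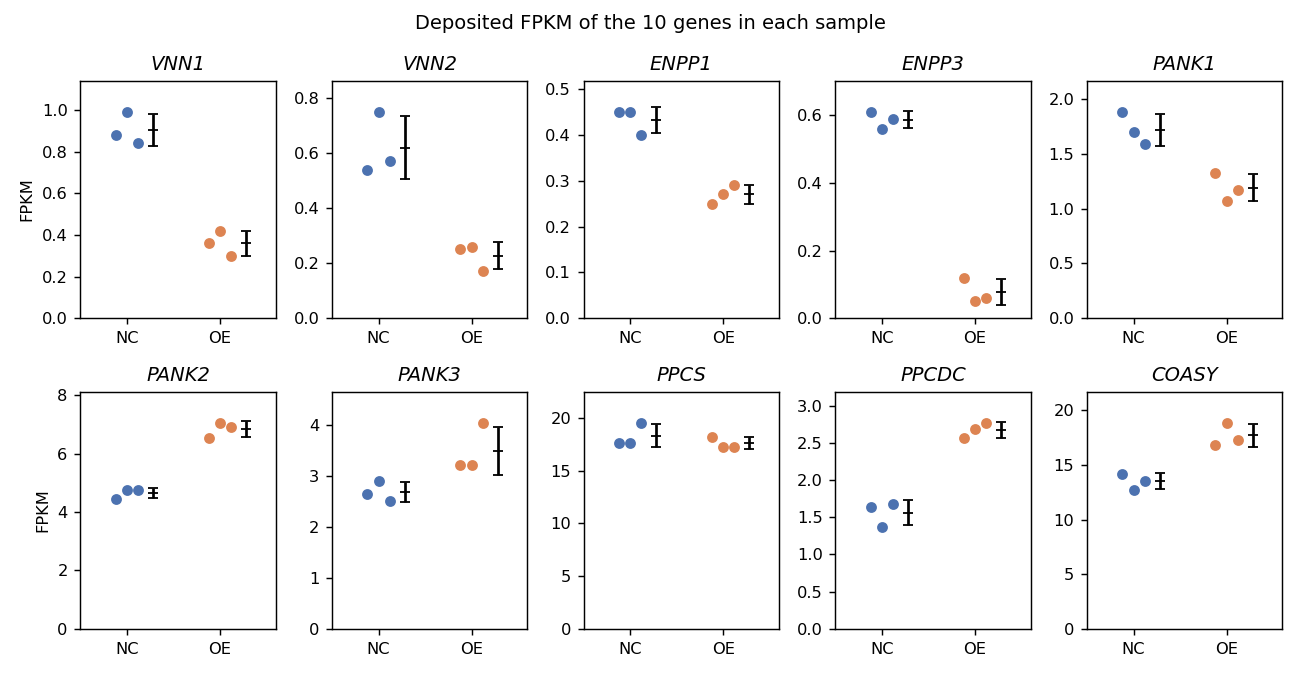
Deposited FPKM (y axis, from 0, a separate scale for each gene) of the 10 genes in the NC (blue) and OE (orange) samples, with the mean and SD of 3 samples in black. The OE points lie below all NC points for VNN1, VNN2, ENPP1, ENPP3 and PANK1 and above them for PANK2, PANK3, PPCDC and COASY, and the groups overlap for PPCS.

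The pantothenate kinases, which catalyse the first and rate-controlling step of CoA synthesis, did not go one way. PANK1 (ENSG00000152782.17, chromosome 10, 89579497 to 89645242, minus strand) was counted 281, 263 and 247 times in NC and 211, 180 and 180 times in OE. Its log2 fold change was −0.56 (SE 0.12) and its FPKM went from 1.72 ± 0.146 (SD, n = 3) to 1.19 ± 0.126 (SD, n = 3). PANK2 (ENSG00000125779.24, chromosome 20, 3888839 to 3929887, plus strand), the mitochondrial kinase, was counted 1519, 1685 and 1684 times in NC and 2391, 2721 and 2419 times in OE. Its log2 fold change was 0.53 (SE 0.06), with an FPKM of 4.66 ± 0.171 in NC and 6.83 ± 0.273 in OE (SD, n = 3 each). For PANK1 every OE sample lay below, and for PANK2 every OE sample lay above, all NC samples.

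PANK3 (ENSG00000120137.7, chromosome 5, 168548495 to 168579368, minus strand) was counted 1021, 1163 and 1010 times in NC and 1339, 1406 and 1604 times in OE. Its groups did not overlap in FPKM either, which was 2.64, 2.90 and 2.51 in NC and 3.22, 3.22 and 4.04 in OE, but OE replicate 3 lay well above the other two. The log2 fold change was 0.36 (SE 0.08), with a range of 0.25 to 0.43 over 14 alternatives of processing. The 3 kinases together went from an FPKM of 9.06 ± 0.275 (SD, n = 3) to 11.5 ± 0.544 (SD, n = 3), so that the higher PANK2 and PANK3 outweighed the lower PANK1.

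Within the family the composition shifted towards PANK2. PANK4, a relative that lacks kinase activity, was included in the sum as the remaining family member. PANK2 made up 43.9% ± 2.09 of the summed FPKM of PANK1 to PANK4 in NC and 53.0% ± 2.09 in OE (SD, n = 3 each), a difference of 9.05 percentage points. PANK1 went from 16.3% ± 1.31 to 9.22% ± 1.22 (SD, n = 3 each). The share of PANK3 was 25.3% ± 1.00 in NC and 27.0% ± 2.54 in OE (SD, n = 3 each), with overlapping samples, and the difference of 1.73 percentage points was 0.276 without OE replicate 3 and 0.683 when PANK4 was left out of the sum. PANK4 went from 14.5% ± 0.695 to 10.8% ± 0.475 (SD, n = 3 each), a difference of −3.75 points with no overlap, so its share too was smaller in OE. Over PANK1 to PANK3 alone the share of PANK2 still differed by 8.0 points. PANK2 was present at 2.37, 2.81 and 2.98 times the FPKM of PANK1 in the NC samples and at 4.95, 6.60 and 5.91 times in the OE samples.

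**Figure D2:**
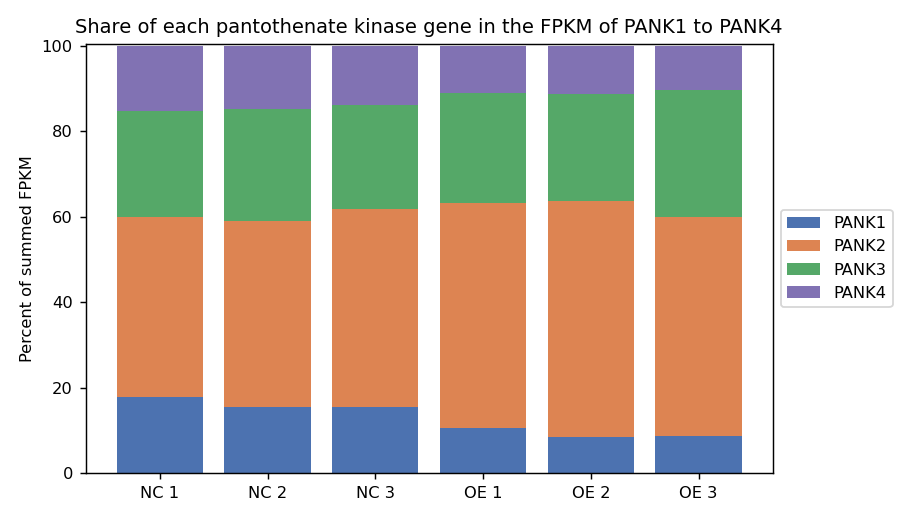
Share of PANK1, PANK2, PANK3 and PANK4 (stacked colours, percent of their summed FPKM on the y axis) in each of the 6 samples. The PANK1 share is 15.5% to 17.8% in NC and 8.38% to 10.6% in OE, and the PANK2 share is 42.2% to 46.2% in NC and 51.2% to 55.3% in OE.

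Of the enzymes after the kinases, 2 were higher in OE and 1 was not separated. PPCS (ENSG00000127125.9, chromosome 1, 42456117 to 42473385, plus strand), which joins phosphopantothenate to cysteine, was counted 2250, 2332 and 2596 times in NC and 2494, 2487 and 2256 times in OE. Its CPM was 64.7, 66.3 and 72.2 in NC and 67.5, 62.9 and 62.1 in OE, so the groups overlapped, and the log2 fold change was −0.08 (SE 0.06). PPCDC (ENSG00000138621.12, chromosome 15, 75023586 to 75117462, plus strand), the decarboxylase of the next step, was counted 229, 199 and 245 times in NC and 386, 426 and 399 times in OE. At 0.76 (SE 0.10), a fold of 1.69, its log2 fold change was the highest of the members, and its FPKM went from 1.56 ± 0.169 (SD, n = 3) to 2.67 ± 0.106 (SD, n = 3).

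COASY (ENSG00000068120.15, chromosome 17, 42561467 to 42566277, plus strand) was counted 2132, 1982 and 2131 times in NC and 2722, 3213 and 2678 times in OE. Its FPKM was 13.5 ± 0.740 in NC and 17.7 ± 1.06 in OE (SD, n = 3 each), and its log2 fold change was 0.37 (SE 0.06), with no overlap between the groups. The FPKM of COASY over that of PPCS was 0.802, 0.719 and 0.694 in NC and 0.924, 1.09 and 1.00 in OE. The sum of PPCS, PPCDC and COASY was 33.3 ± 1.54 in NC and 37.9 ± 0.792 in OE (SD, n = 3 each).

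**Figure D3:**
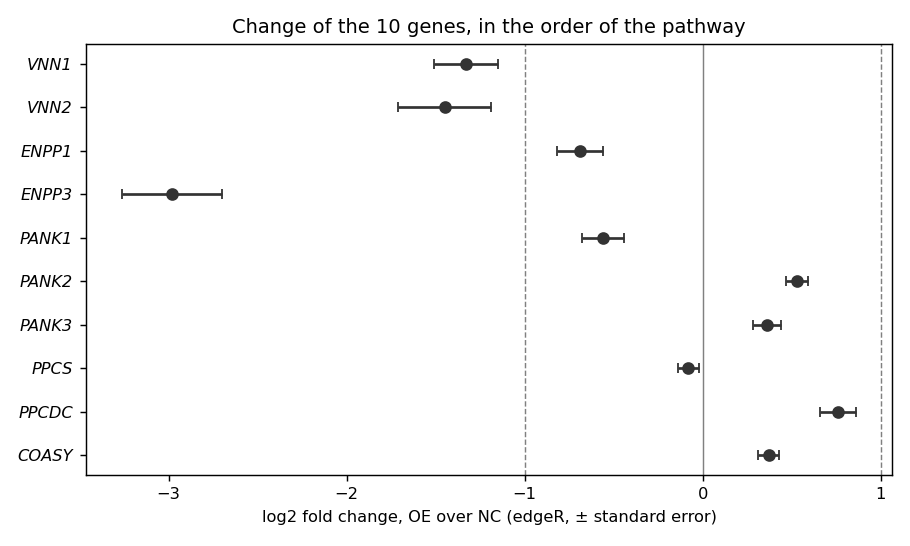
Log2 fold change of OE over NC (x axis, edgeR, points with standard errors) for the 10 genes, with dashed lines at a fold of 2 and of 0.5. VNN1, VNN2 and ENPP3 lie beyond the lower line, none lies beyond the upper one, and PPCS, at −0.08, is nearest to 0.

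All 10 members passed the filter on low counts. At an adjusted p under 0.05 from edgeR, 4 were higher in OE, where 24.9% of the 15878 tested genes were, and 5 were lower, where 23.7% were. A fold above 2 was reached by none of the members, whatever its p, and with an adjusted p under 0.05 by 1.73% of the tested genes. With a fold below 0.5, 3 members were lower, against 3.79% of the tested genes. Every OE sample lay above every NC sample for 4 members and for 28.2% of the tested genes, and below for 5 members and for 27.1%. The median log2 fold change of the members was −0.32 and that of all tested genes was −0.003. The comparison itself entered the choice of the genes, and nothing is read from these counts.

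The order of the levels, compared per length in FPKM, changed at a few places. In NC it was PPCS (18.3), COASY (13.5), PANK2 (4.66), PANK3 (2.68), PANK1 (1.72), PPCDC (1.56), VNN1 (0.903), VNN2 (0.620), ENPP3 (0.587) and ENPP1 (0.433). The ranges of PANK1 and PPCDC overlapped there, as did those of VNN2 and ENPP3, and the other neighbours in the order did not. In OE it was COASY (17.7), PPCS (17.6), PANK2 (6.83), PANK3 (3.49), PPCDC (2.67), PANK1 (1.19), VNN1 (0.360), ENPP1 (0.270), VNN2 (0.227) and ENPP3 (0.0767), where COASY overlapped with PPCS and ENPP1 with VNN2. The members lower in OE were thus those with an FPKM under 2 in NC, and among the low members only PPCDC was higher. Because counts of the salvage genes were small, their values carry the larger errors.

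Without NC replicate 2 the log2 fold changes were −0.66 for ENPP1, −2.99 for ENPP3, −0.56 for PANK1, 0.56 for PANK2, 0.43 for PANK3, −0.09 for PPCS, 0.68 for PPCDC and 0.34 for COASY. Some counts may hold reads of overlapping genes, since it is not stated whether the counting used strand. PANK2 shares 28.3% of its exonic bases with RNF24 on the opposite strand, whose log2 fold change was −0.06 (adjusted p = 0.74 from edgeR). PPCS shares 7.74% with CCDC30 on the same strand, counted 125, 137 and 86 times in NC and 190, 198 and 180 times in OE. The log2 fold change of CCDC30 was 0.61 (adjusted p = 0.0027 from edgeR). PANK3 shares 14.0% with the processed pseudogene SLC2A3P1 on the same strand.

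By the root mean square difference of log2 values, each centred on its gene's mean over the 6 samples, the genes most like VNN1 were MAGED4B (0.0796), GSG1 (0.0919) and RP11-54H7.4 (0.0989), with log2 fold changes of −1.32, −1.30 and −1.19. MAGED4B has a near-identical copy and its counts are uncertain. The genes most like PPCS were PIK3C2B (0.0146), IFT20 (0.0170) and HINT1 (0.0259).

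The 4 ectoenzyme genes lie within 1135.0 kb of chromosome 6, with ENPP3 60.6 kb before ENPP1, ENPP1 785.7 kb before VNN1 and VNN1 29.8 kb before VNN2. The other genes within 500 kb of this stretch were therefore examined, of which 22 were in the count table and 9 could be tested. CCN2, a matricellular protein gene between ENPP1 and VNN1, fell from a CPM of 220 ± 2.62 to 156 ± 4.89 (SD, n = 3 each), a log2 fold change of −0.50 (SE 0.05, adjusted p = 3.2e-08 from edgeR). STX7 (log2 fold change −0.32, adjusted p = 8.4e-05), MED23 (−0.29, adjusted p = 0.021) and MOXD1 (−0.17, adjusted p = 0.026) also fell in edgeR.

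On the other side, EYA4 rose by 0.50 (SE 0.11, adjusted p = 0.0006) and SLC18B1, next to VNN2, by 0.39 (SE 0.12, adjusted p = 0.010), both from edgeR. AKAP7, RPS12 and SNORD101 did not pass the test, at 0.19, 0.08 and 0.43. In all 2 of the 9 neighbours rose and 4 fell, where 24.9% and 23.7% of all tested genes did, none of the 6 was past a fold of 2 or 0.5, and the median was 0.08. The count of 4 was 2 without OE replicate 1 or OE replicate 2.

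**Figure D4:**
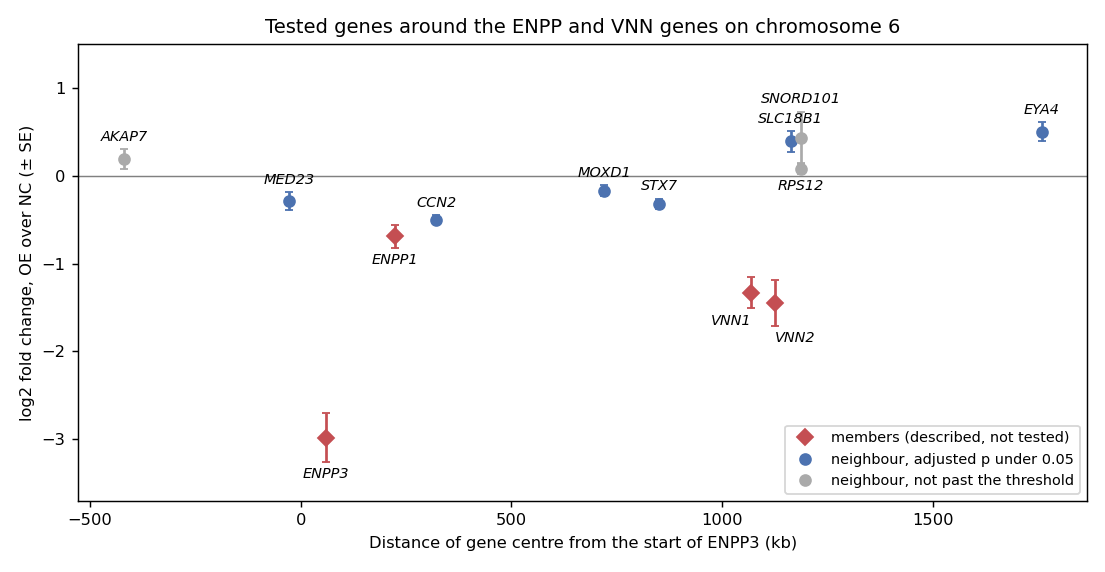
Log2 fold change of OE over NC (y axis, edgeR, with standard errors) against the distance of each gene's centre from the start of ENPP3 in kb (x axis), for the 4 members (red diamonds) and the 9 tested neighbours (blue where the adjusted p is under 0.05, grey otherwise). The neighbours lie between −0.50 and 0.50, and the members between −2.98 and −0.69.

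Around the 10 genes, 7 lists were compared in the same fit. Besides genes around CoA itself, the lists include relatives and partners of ENPP1 and ENPP3, and PPARA with its targets. They hold 65 genes of the count table, 55 of which were tested: 12 rose and 18 fell at an adjusted p under 0.05, with a median of −0.14. Against the shares of all tested genes, 24.9% and 23.7%, nothing is called particular to the lists. The lists too were chosen with earlier results of these data known, so an adjusted p of a list gene is not independent support.

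Among 10 tested genes of CoA supply, handling and turnover, 2 rose and 3 fell, with a median of −0.23. SLC5A6, the multivitamin transporter that takes up pantothenate, rose from a CPM of 6.96 ± 0.591 to 8.84 ± 0.843 (SD, n = 3 each), a log2 fold change of 0.34 (SE 0.11, adjusted p = 0.014 from edgeR). NUDT19, a CoA diphosphatase, rose by 0.31 (SE 0.10, adjusted p = 0.016). SLC25A42, a mitochondrial carrier of CoA, fell by 0.89 (SE 0.26, adjusted p = 0.0068), from counts of 46, 58 and 46 to 32, 31 and 23. DCAKD, which resembles the dephospho-CoA kinase part of COASY, fell by 0.50 (SE 0.10, adjusted p = 0.00023), and AASDHPPT, which transfers phosphopantetheine from CoA to carrier proteins, fell by 0.35 (SE 0.10, adjusted p = 0.0069). PANK4 did not pass the test, at −0.17 (adjusted p = 0.18), nor did BTD at −0.22, NUDT8 at −0.23 and SLC25A16 at 0.19.

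The proteins that carry the phosphopantetheine arm went in opposite directions. ALDH1L2, the mitochondrial formyltetrahydrofolate dehydrogenase, rose from a CPM of 11.1 ± 0.653 to 28.8 ± 3.10 (SD, n = 3 each), a log2 fold change of 1.37 (SE 0.09, adjusted p = 6.2e-11 from edgeR). FASN, the fatty acid synthase, fell from 71.1 ± 3.67 to 36.9 ± 0.706 (SD, n = 3 each), a log2 fold change of −0.94 (SE 0.06, adjusted p = 2.2e-11). Of 4 tested genes of this list, NDUFAB1, the mitochondrial acyl carrier protein (0.08), and AASDH (0.21) did not pass.

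In the list of valine, beta-alanine, cysteamine and taurine metabolism, which covers precursors and products of the pathway, 2 of 7 tested genes rose and 3 fell, with a median of −0.19. UPB1, which makes beta-alanine, fell by 1.08 (SE 0.21, adjusted p = 0.0002 from edgeR), and CSAD, an enzyme of taurine synthesis, fell by 0.83 (SE 0.15, adjusted p = 9.7e-05). The taurine transporter SLC6A6 fell by 0.59 (SE 0.07, adjusted p = 3.7e-07). ADO, the dioxygenase that turns the cysteamine released by pantetheinases into hypotaurine, rose by 0.21 (SE 0.08, adjusted p = 0.042), with groups that overlapped in CPM. The other gene that rose was the branched-chain transaminase BCAT1, at 1.09.

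Of 9 tested acyl-CoA synthetases, which consume free CoA, ACSL1 rose by 0.44 (adjusted p = 0.00018 from edgeR), while ACSL4 (−0.73, adjusted p = 6.6e-09), ACSF2 (−0.56, adjusted p = 5.1e-06) and ACSS2 (−0.68, adjusted p = 1.7e-05) fell, with a list median of 0.01. Of 7 tested acyl-CoA thioesterases, which release it, 3 fell in edgeR, with a median of −0.16: ACOT7 at −0.47 (adjusted p = 1.4e-05), ACOT1 at −0.79 (adjusted p = 0.019) and ACOT9 at −0.16 (adjusted p = 0.022). ACOT8 (0.21), ACOT13 (0.07), ACOT2 (0.00) and ACOT11 (−0.49) did not pass. ACOT1 and ACOT2 are near-identical copies, so their counts are uncertain.

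The list of ectonucleotidases and pyrophosphate genes holds the relatives and partners of ENPP1 and ENPP3. Of its 9 tested members, 3 rose and 2 fell, with a median of −0.23. NT5E, the ectonucleotidase that makes adenosine from AMP, rose from a CPM of 19.1 ± 0.780 to 38.9 ± 0.881 (SD, n = 3 each), a log2 fold change of 1.02 (SE 0.07, adjusted p = 1.3e-10 from edgeR). ABCC6, a transporter needed for ATP release, fell from 5.55 ± 0.380 to 2.53 ± 0.293 (SD, n = 3 each), a log2 fold change of −1.13 (SE 0.14, adjusted p = 1.3e-06). Within the ENPP family, ENPP4 rose by 0.50 (SE 0.13, adjusted p = 0.0032), whereas ENPP2 and ENPP5 did not pass, at −0.23 and −0.39. The phosphate transporters SLC20A1 and SLC20A2 went apart, at 0.30 (adjusted p = 0.00018) and −0.56 (adjusted p = 1.9e-05).

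PPARA, the nuclear receptor for which VNN1 is a known target, fell by 0.29 (SE 0.12, adjusted p = 0.046 from edgeR). Of 9 tested genes in the list of PPARA and its targets, 3 rose and 3 fell, with a median of −0.05. PDK4 fell by 1.07 (SE 0.09, adjusted p = 3.8e-09) and ACADVL fell by 0.15 (adjusted p = 0.017), while ANGPTL4 rose by 0.39 (adjusted p = 5.8e-05), CPT1A by 0.20 (adjusted p = 0.013) and PLIN2 by 0.18 (adjusted p = 0.0057).

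**Figure D5:**
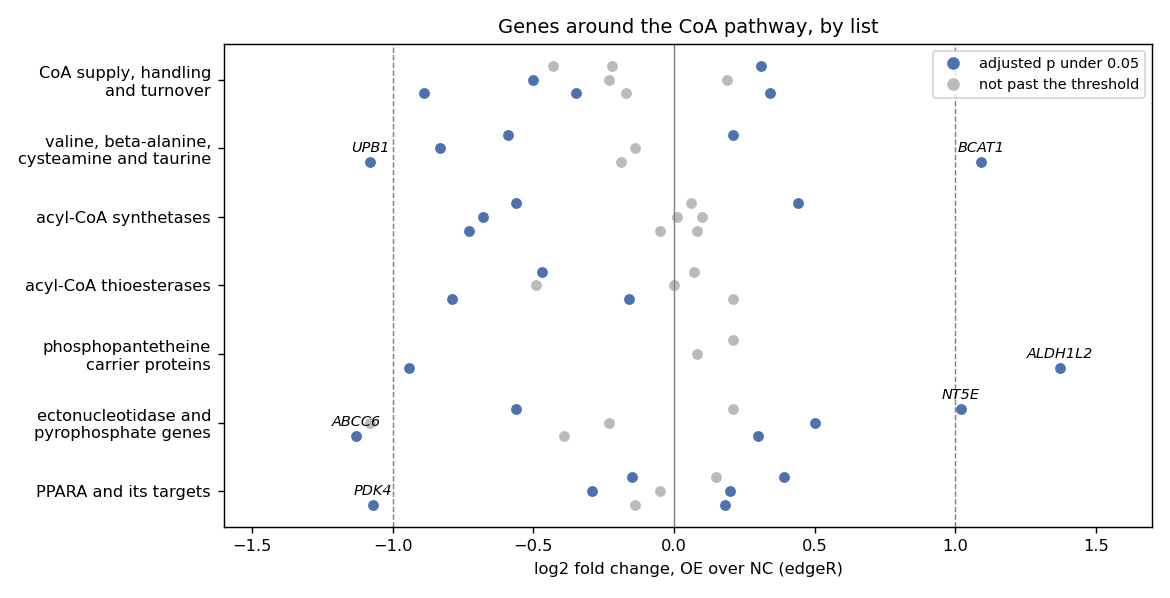
Log2 fold change of OE over NC (x axis, edgeR) of the 55 tested genes in 7 lists around the CoA pathway (y axis, small vertical offsets separate the points), blue where the adjusted p is under 0.05 and grey otherwise, with dashed lines at a fold of 2 and of 0.5. Each list has points on both sides of 0, and blue points beyond a dashed line are named: BCAT1, ALDH1L2 and NT5E on the right and UPB1, ABCC6 and PDK4 on the left.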

How the data were processed

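RNA of 6 HK-2 samples, 3 NC and 3 OE, was sequenced by the authors from stranded mRNA libraries. Per the study's methods, reads were trimmed with FASTX-Toolkit and aligned to GRCh38 with HISAT2, and uniquely mapped reads were counted per gene. The deposited counts are not normalized and cover 31369 genes. The deposited FPKM values, also made by the authors, are scaled to transcript length and mapped fragments and given to 2 decimals. The annotation, the counting program and its strand setting are not given in the sources used here. GENCODE release 44, which holds 99.8% of the identifiers, gave coordinates and overlaps. Promoter and microRNA sequences are those of RefSeq on GRCh38.p14.

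The deposited counts were filtered with filterByExpr, scaled by TMM and fitted with the quasi-likelihood test of edgeR 4.0.16 under R 4.3.3, on all 15878 genes that passed the filter, with Benjamini-Hochberg adjustment over all of them. Every adjusted p printed as a value is from this fit, while counts under an alternative rest on the adjusted p of that alternative. Each SE of a log2 fold change is its absolute value divided by the square root of the quasi-likelihood F statistic. It was thus derived from the test statistic of edgeR. CPM was computed by edgeR. Total counts were 34635770 to 39850802 per sample, so counting error matters mainly for the genes with fewer than about 100 counts. Groups and replicate numbers came from the labels. Separate cultures are not stated, so the p-values measure the spread between these samples, which may be technical. For one gene, 3 samples against 3 allow no exact two-sided permutation p below 0.1. Replicates of a group differed by more than sampling noise, and none was a copy of another.

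The members and all lists were chosen with earlier results of these data known. The named genes are the 10 members, the tested list genes with an adjusted p under 0.05, with up to 4 per direction and list, a few others of a list with their values, and the 3 genes most like VNN1 and PPCS. Alternatives were DESeq2 1.42.0, limma 3.58.1 on log2(FPKM + 1) and log2(FPKM + 0.1), other size factors, other filters, the replicate number as a block and each sample left out in turn. The scripts were tested on simulated data. Protein sequences were not used here. One marker gene is not reported here. Python 3.11.15, pandas 2.3.3 and matplotlib 3.10.9 were used for tables and figures.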

Additional observations from a re-analysis of the deposited data

How the results depend on the processing

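No log2 fold change of a member changed its sign under any alternative that gave a value. Over the alternatives that used counts, VNN1 ranged from −1.45 to −1.22, VNN2 from −1.56 to −1.28, ENPP1 from −0.75 to −0.65, ENPP3 from −3.44 to −2.73, PANK1 from −0.65 to −0.48, PANK2 from 0.49 to 0.56, PANK3 from 0.25 to 0.43, PPCS from −0.12 to −0.02, PPCDC from 0.68 to 0.82 and COASY from 0.33 to 0.40. ENPP3 has no value where at least 10 counts were required in every sample. With limma on log2(FPKM + 1), a scale on which low values are compressed, VNN1 was at −0.49, VNN2 at −0.40, ENPP1 at −0.17 and ENPP3 at −0.56, and 0 members were lower with a fold below 0.5, against 3 in edgeR. In limma the members at an adjusted p under 0.05 numbered 3 higher on either FPKM scale, without PANK3, and 4 lower on log2(FPKM + 0.1), without ENPP1. Of all 30896 genes in these fits, 5491 passed in either direction on log2(FPKM + 1) and 5542 on log2(FPKM + 0.1). With at least 10 counts in every sample 4 were lower, since ENPP3 was not fitted. There 7495 of 14739 genes passed in either direction. Among the neighbours on chromosome 6, limma gave 1 that rose on either FPKM scale, and 2 fell by DESeq2 and by limma on either scale. With each sample left out in turn, 2 to 4 fell and 2 to 3 rose. The cause was not tested. The share of PANK1 differed by −8.69 percentage points when summed over PANK1 to PANK3 only, and that of PANK3 by 0.276 to 2.63 with each sample left out in turn. Over all genes, those with an adjusted p under 0.05 and a 2-fold difference numbered 875 in edgeR, 123 by limma on log2(FPKM + 1), 512 on log2(FPKM + 0.1) and 796 by DESeq2. 

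No shared deviation of same-numbered samples was seen over the tested genes, with correlations of −0.00319, −0.0663 and −0.0542 for replicates 1, 2 and 3. These values cannot tell whether same-numbered samples were cultured or prepared together, which is not stated. Under a fit with a replicate block, 11 genes of the 7 lists around the members rose and 15 fell, against 12 and 18 without it. In the same fit 3 neighbours fell, and the counts of members in each direction stayed at 4 and 5. In that fit 7065 of 15878 genes passed in either direction, against 7715 without the block. Depth limits the values of VNN2 and ENPP3 most, whose OE samples hold 8 to 29 counts.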
